A study of Mus musculus with 14 samples.

Results

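Training-lowered genes were followed from wild-type (WT) mice into the THY-Tau22 model of Tau pathology. The genes were chosen by their levels in WT mice alone: among genes of the learning table with a mean of 100 or more normalized counts over its 9 libraries, the lowest of the 3 untrained WT libraries was divided by the highest of the 2 trained WT libraries, and the 100 genes with the largest ratio were taken. The rule left out 1 of them, so 99 genes were described, of 25933 in the table and of 12382 that reached the mean. Among the 99 genes, 89 were annotated as protein coding and 10 as other transcripts.

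RNA of the dorsal hippocampus of male C57BL6 mice aged 8 months was sequenced, with 1 library per mouse. In the learning experiment, WT VEH_HC mice (n = 3) had saline injections and stayed in their home cage, while WT VEH mice (n = 2) had saline injections and 3 days of training in the Morris water maze. TAU VEH mice (n = 2) and TAU MOL mice (n = 2) were THY-Tau22 mice trained in the same way, the first injected with carbon nanospheres alone (CSP) and the second with nanospheres carrying TTK21 (CSP-TTK21), an activator of the acetyltransferases CBP and p300. All 4 groups had 3 weekly injections, and trained mice were killed 1 h after their last trial. In a separate basal experiment, WT (n = 3) and THY-Tau22 (n = 2) mice were left untrained (basal, resting in the labels). The THY-Tau22 transgene is a mutant form of human Tau, driven in neurons by a Thy1 promoter. No untrained THY-Tau22 mouse stands in the learning table, so that the change with training inside this genotype was not measured, and WT and THY-Tau22 vehicles differed (saline and CSP). Before deposit the study had set aside 3 of 12 learning libraries, from 1 litter.

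Learning in a water maze places a demand on hippocampal neurons, and RNA levels there change soon after a trial. The best known change is the burst of immediate early genes, while the RNA of other genes declines, and a level reflects both synthesis and decay. CBP and p300 are coactivators that acetylate histones at promoters and enhancers and are recruited by CREB, the factor that binds cAMP response elements. In Tau pathology aggregates of Tau form in neurons of the hippocampus, and spatial memory suffers.

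Depth ran from 24693713 to 52180305 counts on genes over the 9 learning libraries, and from 28639121 to 37681155 over the 5 basal ones. Thy1, whose promoter drives the transgene, read 32078 to 37001 normalized counts in the 5 WT learning libraries and 74424 to 86624 in the 4 THY-Tau22 ones, so that the genotypes did not overlap. Hippocampal markers were present in all 9 learning libraries, with none of 8 dentate gyrus markers and none of 6 CA1 markers at 0. The shallowest library, TAU VEH replicate 2, stood apart by transcripts of fat cells: 11 of 12 adipocyte markers were highest there, 7 of them more than 10 times above any other library, and their summed level was 4265 normalized counts against 487 to 622 in the others. Cfd, a secreted protease of adipocytes, read 504 there and 0 in the other 8 libraries. The adipocyte list was added after the values were seen, and it holds Fabp4, a member described below. A home cage library, WT VEH_HC replicate 2, also stood apart from the other 2 of its group. Oligodendrocyte markers summed to 3904 CPM (counts scaled to a fixed library total) there against 7004 and 7895, pericyte and smooth muscle markers to 227 against 117 and 133, endothelial markers to 247 against 146 and 164, and meningeal fibroblast markers to 94.4 against 25.8 and 33.5. Of the 99 members, 54 had their highest home cage value in this library, and 22 and 23 in replicates 1 and 3. The share of all genes highest there was not computed, so the 54 cannot be read as a trait of the members. Without WT VEH_HC replicate 2, 67 members were called lower in TAU VEH than in WT VEH_HC and 68 in TAU MOL (17.7% and 14.2% of all genes). The part of these markers in the values was not tested. For main counts that rest on TAU VEH replicate 2, counts or median fold changes without it are also given.

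Choroid plexus RNA moved with the groups. The 14 markers of this secretory epithelium summed to 159 to 416 CPM in WT VEH_HC, 2192 to 3165 in WT VEH, 461 to 540 in TAU VEH and 1071 to 1182 in TAU MOL, none was at 0 in any library, and none belongs to the 99 genes. CA1 markers summed to 813 to 1094 CPM in WT VEH_HC, 1012 to 1087 in WT VEH, 593 to 629 in TAU VEH and 864 to 866 in TAU MOL. Astrocyte markers summed to 3100 to 3485 CPM over the WT and 3944 to 4368 over the THY-Tau22 learning libraries. The part of cell composition in the values below was not tested, and in bulk tissue fewer cells of a type and less RNA per cell cannot be told apart.

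The rule fixed a gap between the WT groups, and its size is a description. The finite ratios ran from 1.82 for Pla2g4e to 1.25 for Cntrob, the last gene inside, with a median of 1.30. Cntrob, a centrosomal protein, read 582, 577 and 582 normalized counts in WT VEH_HC and 463 and 456 in WT VEH. The first gene outside, Mical1, read 410, 534 and 405 against 325 and 312. By edgeR's quasi-likelihood test, 87 of the 98 members that passed its filter on low counts were called lower in WT VEH than in WT VEH_HC, against 3.05% of all genes tested. That count uses the libraries of the rule and supports nothing. It was 3 without WT VEH replicate 1 (0.0173% of all genes), 19 without WT VEH replicate 2 (0.41%) and 50 with only the groups compared (0.463%). Here and below, a gene was called at an adjusted p under 0.05 (Benjamini-Hochberg over all genes tested) with an absolute log2 fold change above 0.2.

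Fabp4, a fatty acid carrier of adipocytes, headed the list, although hardly any of its RNA was present in WT mice. It read 2.06, 6.56 and 2.66 normalized counts in WT VEH_HC and 0 in both WT VEH libraries, which makes its ratio infinite. Its mean passed 100 only through TAU VEH replicate 2, at 936, while TAU VEH replicate 1 held 0 and the TAU MOL libraries 0.913 and 3.07. Fabp4 did not pass the filter of the test and takes no part in the positions given below, which therefore cover 98 genes.

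To show which letters stand before these genes, promoter windows from 250 bases before to 50 bases after each RefSeq start (GRCm38.p6, a later build than the mm9 of the counts) were searched on both strands. Windows were at hand for 74 of the 99 genes, 97 windows in all. The cAMP response element TGACGTCA, the full site of CREB, was in 1 of the 97 windows (1.03%), against 1.79% of all 32851 windows and 3.01% of those of genes reaching the mean. Its shorter core TGACG, which lies within the full site, was in 25.8% of the member windows, against 20.8% of all windows and 30.4% of those of genes reaching the mean. The E-box CACGTG was in 12.4%, against 7.15% and 9.93%. The GC box GGGCGG was in 55.7%, against 35.7% and 63.0%. AP-1 (TGANTCA) was in 2.06%, against 7.81% and 4.64%. The N-box CACNAG was in 35.1%, against 42.5% and 39.6%, and the EGR site GCGTGGGCG in 2.06%, against 0.612% and 1.15%. These strings are descriptions of the windows and not sites of binding.

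The stretches below carry a CREB string or an E-box before the start of a member that the results return to, with the motif in capitals and 5′ to 3′ on the strand of the gene. Gm3764 is the 1 member with a full element, Nlrx1 and Cirbp lay below the trained WT level in THY-Tau22, B3gntl1 and Kcnj2 lay near the home cage level, and 2810029C07Rik and Wnt9a are among the highest ranked.
Gm3764 (full element, chr3:88214361-88214428, plus strand): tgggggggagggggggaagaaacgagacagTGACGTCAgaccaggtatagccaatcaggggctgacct
Nlrx1 (core, chr9:44268626-44268690, minus strand): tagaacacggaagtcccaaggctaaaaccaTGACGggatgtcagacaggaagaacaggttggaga
Cirbp (core on the other strand, chr10:80168081-80168145, plus strand): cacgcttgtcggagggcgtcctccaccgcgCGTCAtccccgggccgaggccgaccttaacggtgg
B3gntl1 (core, chr11:121673194-121673258, minus strand): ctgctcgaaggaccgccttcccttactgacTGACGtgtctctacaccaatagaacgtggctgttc
2810029C07Rik (core, chr12:111574439-111574503, minus strand): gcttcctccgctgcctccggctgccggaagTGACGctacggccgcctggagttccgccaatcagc
Wnt9a (E-box, chr11:59306680-59306737, plus strand): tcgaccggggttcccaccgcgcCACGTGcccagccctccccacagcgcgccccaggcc
Kcnj2 (E-box, chr11:111066050-111066115, plus strand): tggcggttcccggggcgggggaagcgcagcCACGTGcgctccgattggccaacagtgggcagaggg

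In trained THY-Tau22 mice most members lay below the home cage WT level, in both treatment groups. Both TAU VEH libraries were below every WT VEH_HC library in 81 of 99 cases, while 32.2% of the 12382 genes reaching the mean met this. Both TAU MOL libraries were below for 89 of them, against 30.3%. All 4 THY-Tau22 libraries were below every WT VEH_HC library for 77 genes (26.1% of genes), and no member had all 4 at or above the lowest WT VEH_HC library. Without TAU VEH replicate 2 the 77 became 80 (28.1%). Since the rule took genes for high WT VEH_HC libraries, a gap to these same libraries is favoured by the choice, and the counts are given as a description only. The plot of every member by library shows most THY-Tau22 values below those of the home cage columns, with exceptions such as Kcnj2 and B3gntl1.

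**Figure D1:**
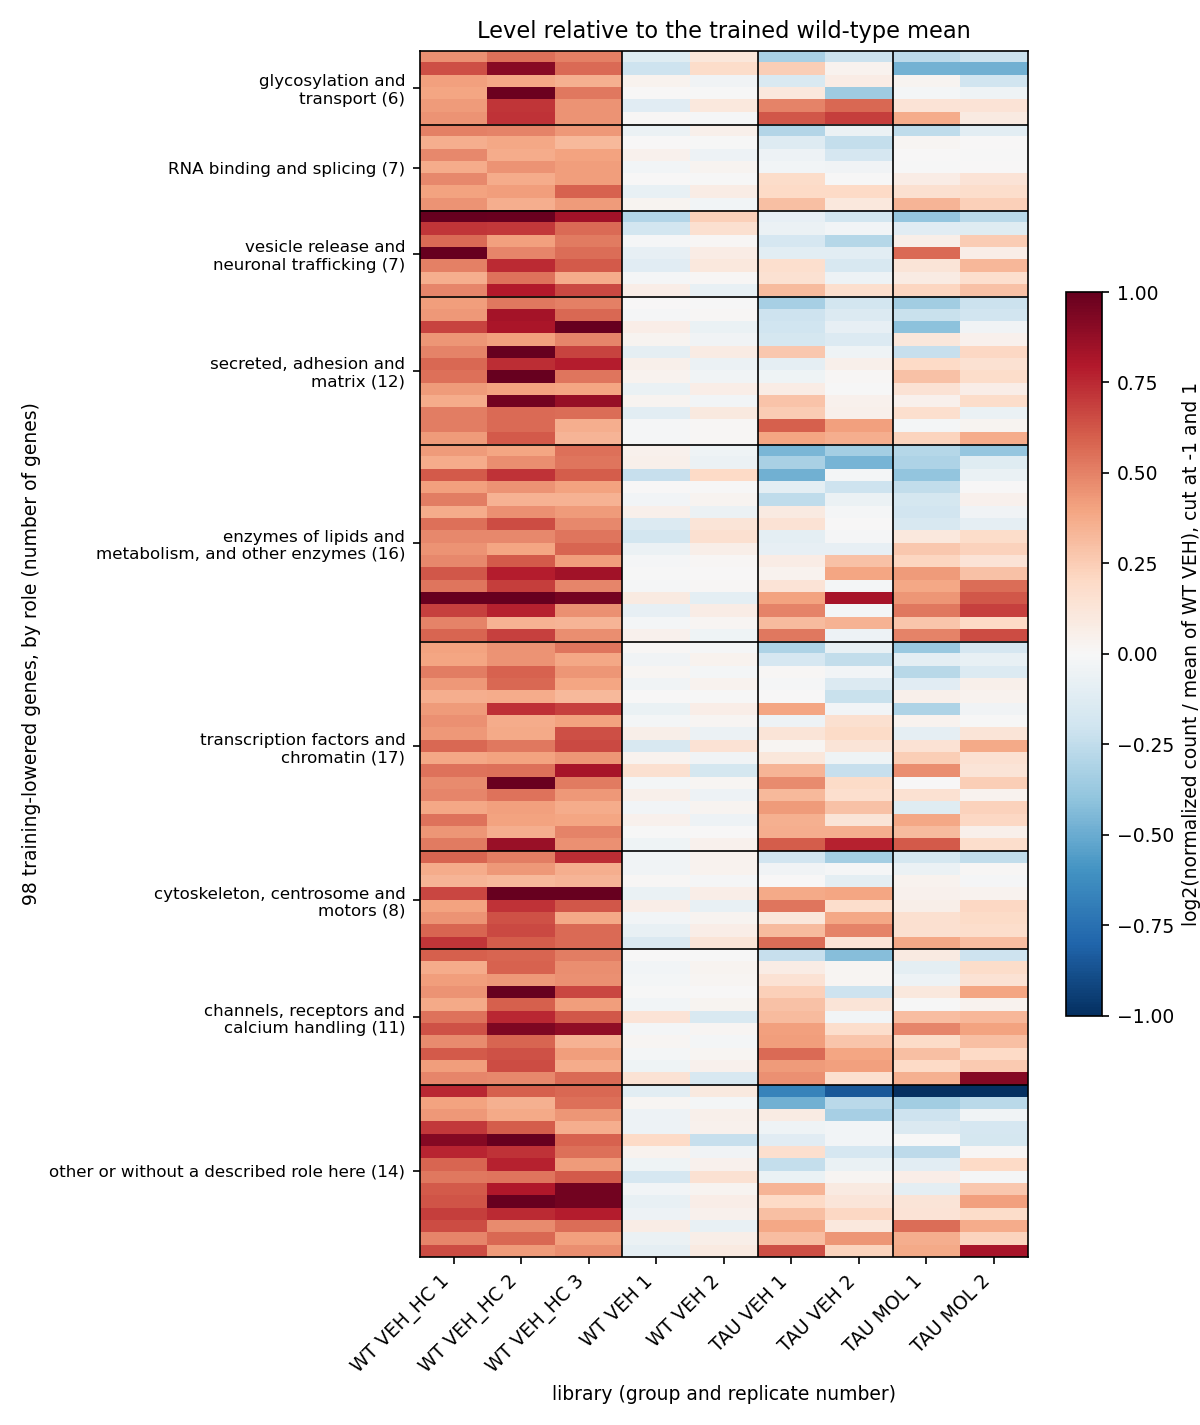
Each row is 1 of 98 members and each column 1 of the 9 learning libraries. Colour gives the log2 ratio of the normalized count to the WT VEH mean (red higher, blue lower, cut at -1 and 1), and rows are grouped by role and ordered by the THY-Tau22 level. The WT columns were used to choose the genes. The THY-Tau22 columns range from blue (9330133O14Rik) to red (D230017M19Rik, Kcnj2), and 77 members have all 4 below every WT VEH_HC library.

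By edgeR, 74 of 98 members were called lower in TAU VEH than in WT VEH_HC, against 18.2% of all 16820 genes tested, and 0 were called higher, against 16.2%. The median log2 fold change of the members was -0.51, and that of all genes -0.01. In TAU MOL, 73 were called lower, against 14.9% of all genes, with a median of -0.45, and 0 were called higher, against 14% of all genes. The rule required these same WT VEH_HC libraries to be high, so lower calls were favoured beforehand, and nothing is read from the gap to all genes. Without TAU VEH replicate 2 the first count was 51 (12.2% of all genes), and without TAU VEH replicate 1 it was 59 (10.8%). The second count was 38 (6.89%) without TAU MOL replicate 1 and 48 (7.67%) without replicate 2. Under scaling by library size alone, which shifts the median of all genes to 0.15 (TAU VEH) and 0.13 (TAU MOL), the medians of the members were -0.35 and -0.31 with 52 and 55 called lower (9.1% and 6.81% of all genes).

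GC content moved with these differences. The members had a median exon GC content of 53.9%, against 50.2% of the genes that reached the mean, and 72 of the 99 lay above the median of those genes. In TAU VEH against WT VEH_HC, members above that GC level had a median log2 fold change of -0.56 and the others of -0.23, while all genes above and at or below it had -0.23 and 0.21. After a correction of each library for GC content and gene length, 44 members were called lower in TAU VEH (5.26% of all genes) and 49 in TAU MOL (4.6%), with medians of -0.38 and -0.34. The correction does not remove the favour that the rule gave to lower calls against WT VEH_HC. Median exon length was alike, 4035 bases for the members and 3933 for the genes. What part GC content has in the differences beyond this correction was not tested.

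**Figure D2:**
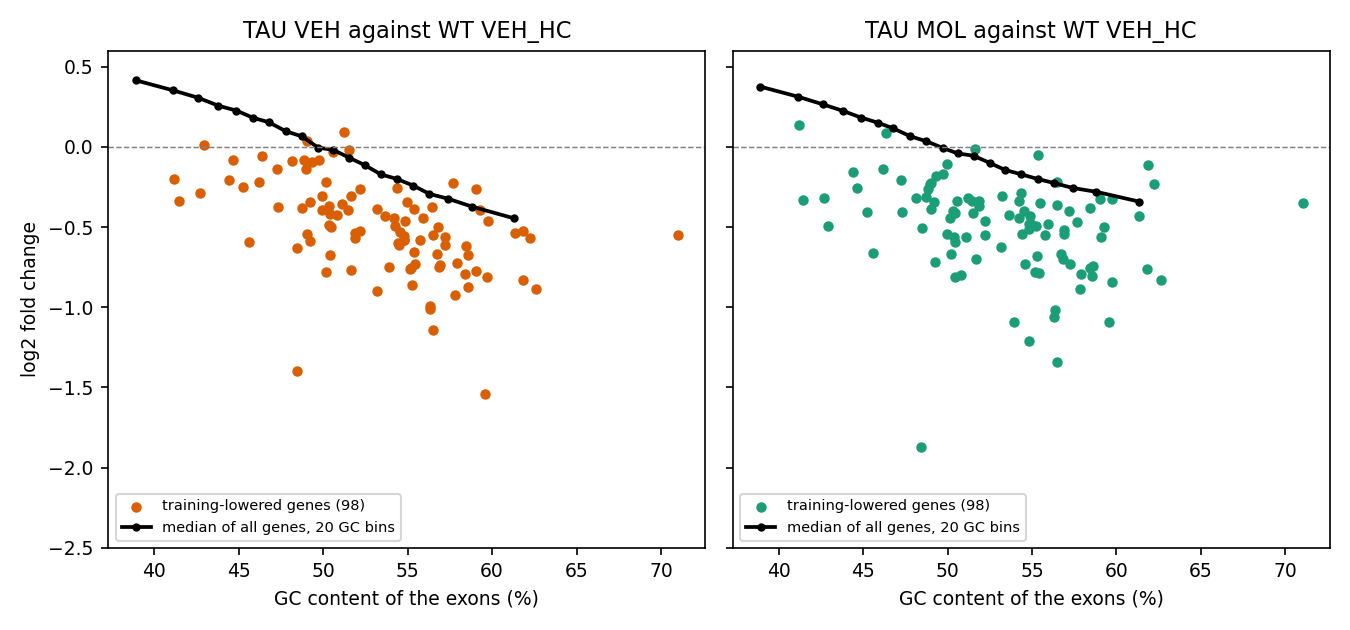
Each point is 1 of 98 members, with the GC content of its exons in percent (x axis) and its log2 fold change against WT VEH_HC (y axis), for TAU VEH on the left and TAU MOL on the right. The black line joins the medians of all genes reaching the mean in 20 bins of GC content and falls from 0.42 to -0.45 in TAU VEH and from 0.38 to -0.34 in TAU MOL. At their own GC content, 94 members lie under the line in TAU VEH and 93 in TAU MOL, with the line held level beyond its end bins. The rule took genes for high WT VEH_HC libraries, so a place under the line was favoured beforehand, and nothing is read from it.

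How far the THY-Tau22 libraries stood from each WT group was put on 1 scale. On this scale, taken on log2 values, 0 is the WT VEH mean and 1 the WT VEH_HC mean of the same gene, so that a gene at 0 was as low as in trained WT mice and a gene at 1 as high as in untrained ones. The median position of the 98 genes was 0.12 for TAU VEH and 0.16 for TAU MOL, with quartiles of -0.16 and 0.46 and of -0.17 and 0.44. Single libraries differed by more than the groups did, with medians of 0.23 and -0.01 in the TAU VEH and of 0.12 and 0.21 in the TAU MOL libraries. In TAU VEH 40 genes lay below 0, 37 from 0 to 0.5 and 21 above 0.5, of which 3 were above 1. In TAU MOL 33 lay below 0, 49 from 0 to 0.5 and 16 above 0.5, of which 2 were above 1. For TAU VEH replicate 1 alone 36 genes lay below 0 and 27 above 0.5, of which 5 were above 1. Both ends of the scale are libraries that the rule used, so the position of any other group is shaped by the choice and is given as a description.

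**Figure D3:**
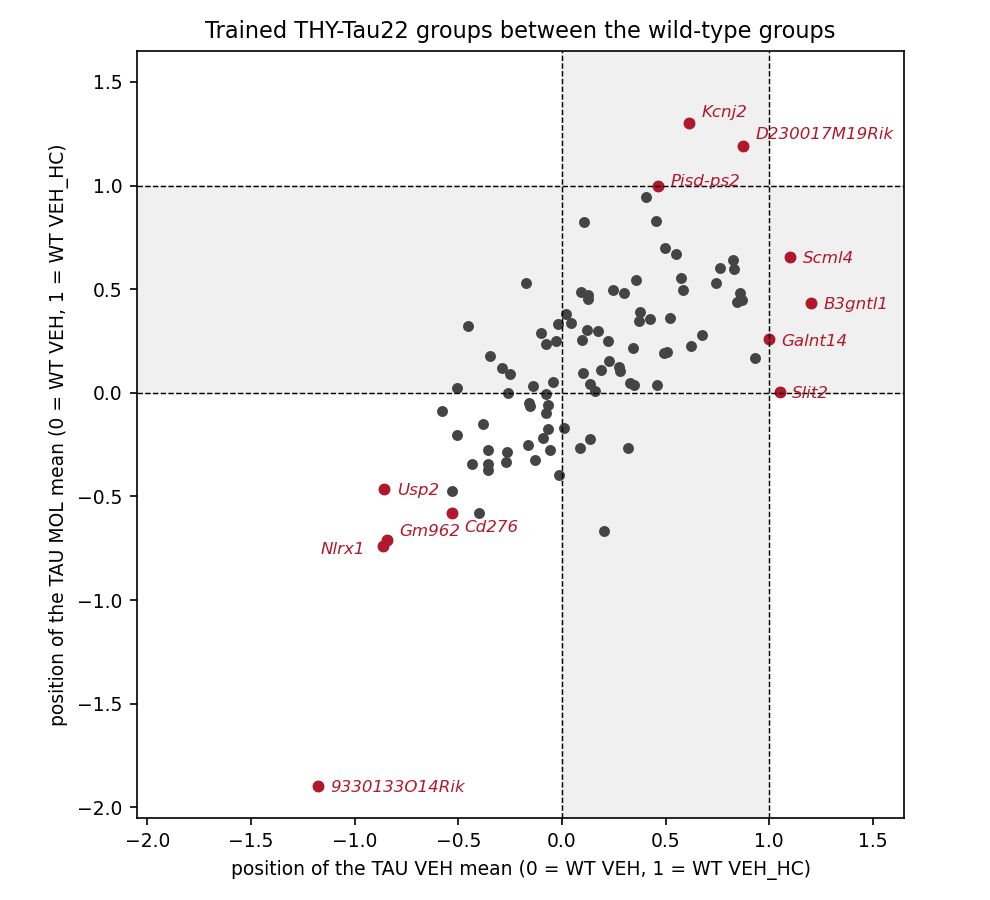
Each point is 1 of 98 members, placed by the TAU VEH mean (x axis) and the TAU MOL mean (y axis) on the scale where 0 is the WT VEH mean and 1 the WT VEH_HC mean, marked by dashed lines. Both axes share the WT libraries, so the slope of the cloud is no result. Named genes are red, and 9330133O14Rik lies lowest at -1.18 and -1.90 while Slit2 lies at 1.05 and 0.00.

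Between the trained THY-Tau22 and trained WT mice the members were spread in both directions. By edgeR, 11 members were called higher in TAU VEH than in WT VEH, against 3.61% of all genes, and 3 lower, against 10.8%. In TAU MOL 2 were called higher, against 0.612%, and 1 lower, against 5.02%. The median log2 fold changes were 0.05 and 0.08. As the rule took genes for low WT VEH libraries, a higher value in any other group is favoured by the choice. The calls rest on 2 mice per group. Leaving out 1 of the 4 libraries of a comparison leaves 1 mouse in a group, so only fold changes are given. The median of the members then ran from -0.01 to 0.10 in TAU VEH and from 0.05 to 0.12 in TAU MOL. That of all genes ran from -0.003 to 0.02 in TAU VEH and from -0.007 to 0.01 in TAU MOL. With the GC and length correction 5 and 0 members were called higher (0.488% and 0.0357% of all genes). Library size alone gave 22 and 8, but it also raised the shares of all genes called higher to 15.3% and 4.5%. Both TAU VEH libraries were above both WT VEH libraries for 37 members (32.2% of genes) and below them for 23 (32.6%). Both TAU MOL libraries were above for 43 (27.8%) and below for 15 (29.2%). All 4 THY-Tau22 libraries were above both WT VEH libraries for 27 members (21.7% of genes) and below both for 11 (23.8%). Without TAU VEH replicate 2 these were 37 (25.2%) and 11 (26.8%), and TAU VEH replicate 1 alone was above both WT VEH libraries for 59 members (41.4%) and below for 29 (41.7%).

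The 5 genes nearest the home cage level over the 4 THY-Tau22 libraries were D230017M19Rik, Kcnj2, Scml4, B3gntl1 and Pisd-ps2. Kcnj2 encodes the inward rectifier potassium channel Kir2.1, which holds neurons near their resting potential. It read 381, 380 and 401 normalized counts in WT VEH_HC, 300 and 244 in WT VEH, 372 and 303 in TAU VEH, then 348 and 514 in TAU MOL. The highest library of all 9 was thus TAU MOL replicate 2, the THY-Tau22 groups overlapped each other, and every one of their libraries was above both WT VEH libraries. D230017M19Rik, a RIKEN transcript, read 137, 117 and 121 in WT VEH_HC, 81.8 and 92.8 in WT VEH, 137 and 102 in TAU VEH, then 113 and 155 in TAU MOL. It overlapped the home cage range in both THY-Tau22 groups and was, with Fabp4 left aside, the 1 member whose mean over the 4 libraries passed the WT VEH_HC mean.

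Scml4, a relative of Polycomb proteins that keep chromatin silent, read 135, 172 and 130 in WT VEH_HC, 91.7 and 97.1 in WT VEH, 143 and 161 in TAU VEH, then 144 and 107 in TAU MOL. Its TAU VEH libraries lay inside the home cage range. B3gntl1, a glycosyltransferase-like protein, read 180, 218 and 180 in WT VEH_HC, 133 and 131 in WT VEH, 203 and 213 in TAU VEH, then 171 and 140 in TAU MOL. Here the TAU VEH libraries stood within the home cage range and the TAU MOL libraries below it, at a log2 fold change between the treatments of -0.41 ± 0.16 (SE). Pisd-ps2 and Pisd-ps1 are 2 near-identical copies derived from the phosphatidylserine decarboxylase gene. The study counted only reads with a unique alignment, so reads that match both copies are missing and the values of both are uncertain. Pisd-ps2 read 489, 523 and 449 in WT VEH_HC, 336 and 316 in WT VEH, 471 and 315 in TAU VEH, then 459 and 513 in TAU MOL, and both copies were low in TAU VEH replicate 2 and high in the other 3 THY-Tau22 libraries.

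At the other end, the 5 genes farthest below the trained WT level were 9330133O14Rik, Nlrx1, Gm962, Usp2 and Cd276. 9330133O14Rik, a RIKEN transcript, read 258, 231 and 227 in WT VEH_HC, 142 and 164 in WT VEH, 96.1 and 85.0 in TAU VEH, then 63.9 and 67.6 in TAU MOL. The 4 groups did not overlap and each stood below the one before. Nlrx1, a mitochondrial member of the NOD-like receptor family, read 818, 798 and 891 in WT VEH_HC, 627 and 589 in WT VEH, 444 and 481 in TAU VEH, then 498 and 464 in TAU MOL. Its THY-Tau22 groups overlapped each other and lay below every WT library. The log2 fold change of Nlrx1 in TAU VEH against WT VEH depended on the scaling. It was -0.40 with DESeq2, -0.27 under library size alone and -0.13 after the GC and length correction, and the last 2 were not called.

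Usp2, a deubiquitinase linked to the circadian clock, was among the more abundant members. It read 4333, 4609 and 4862 in WT VEH_HC, 3475 and 3222 in WT VEH, 2678 and 2423 in TAU VEH, then 2702 and 3079 in TAU MOL. Cd276, the immune checkpoint molecule B7-H3, read 745, 806 and 791 in WT VEH_HC, 559 and 557 in WT VEH, 444 and 490 in TAU VEH, then 438 and 479 in TAU MOL. Gm962, a predicted gene, read 307, 298 and 340 in WT VEH_HC, 236 and 230 in WT VEH, 167 and 193 in TAU VEH, then 183 and 193 in TAU MOL. For all 3 genes every THY-Tau22 library was below both WT VEH libraries. Usp2 exons overlap those of Rnf26 on the opposite strand, and the kit did not mark strand, so reads of the pair cannot be told apart.

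**Figure D4:**
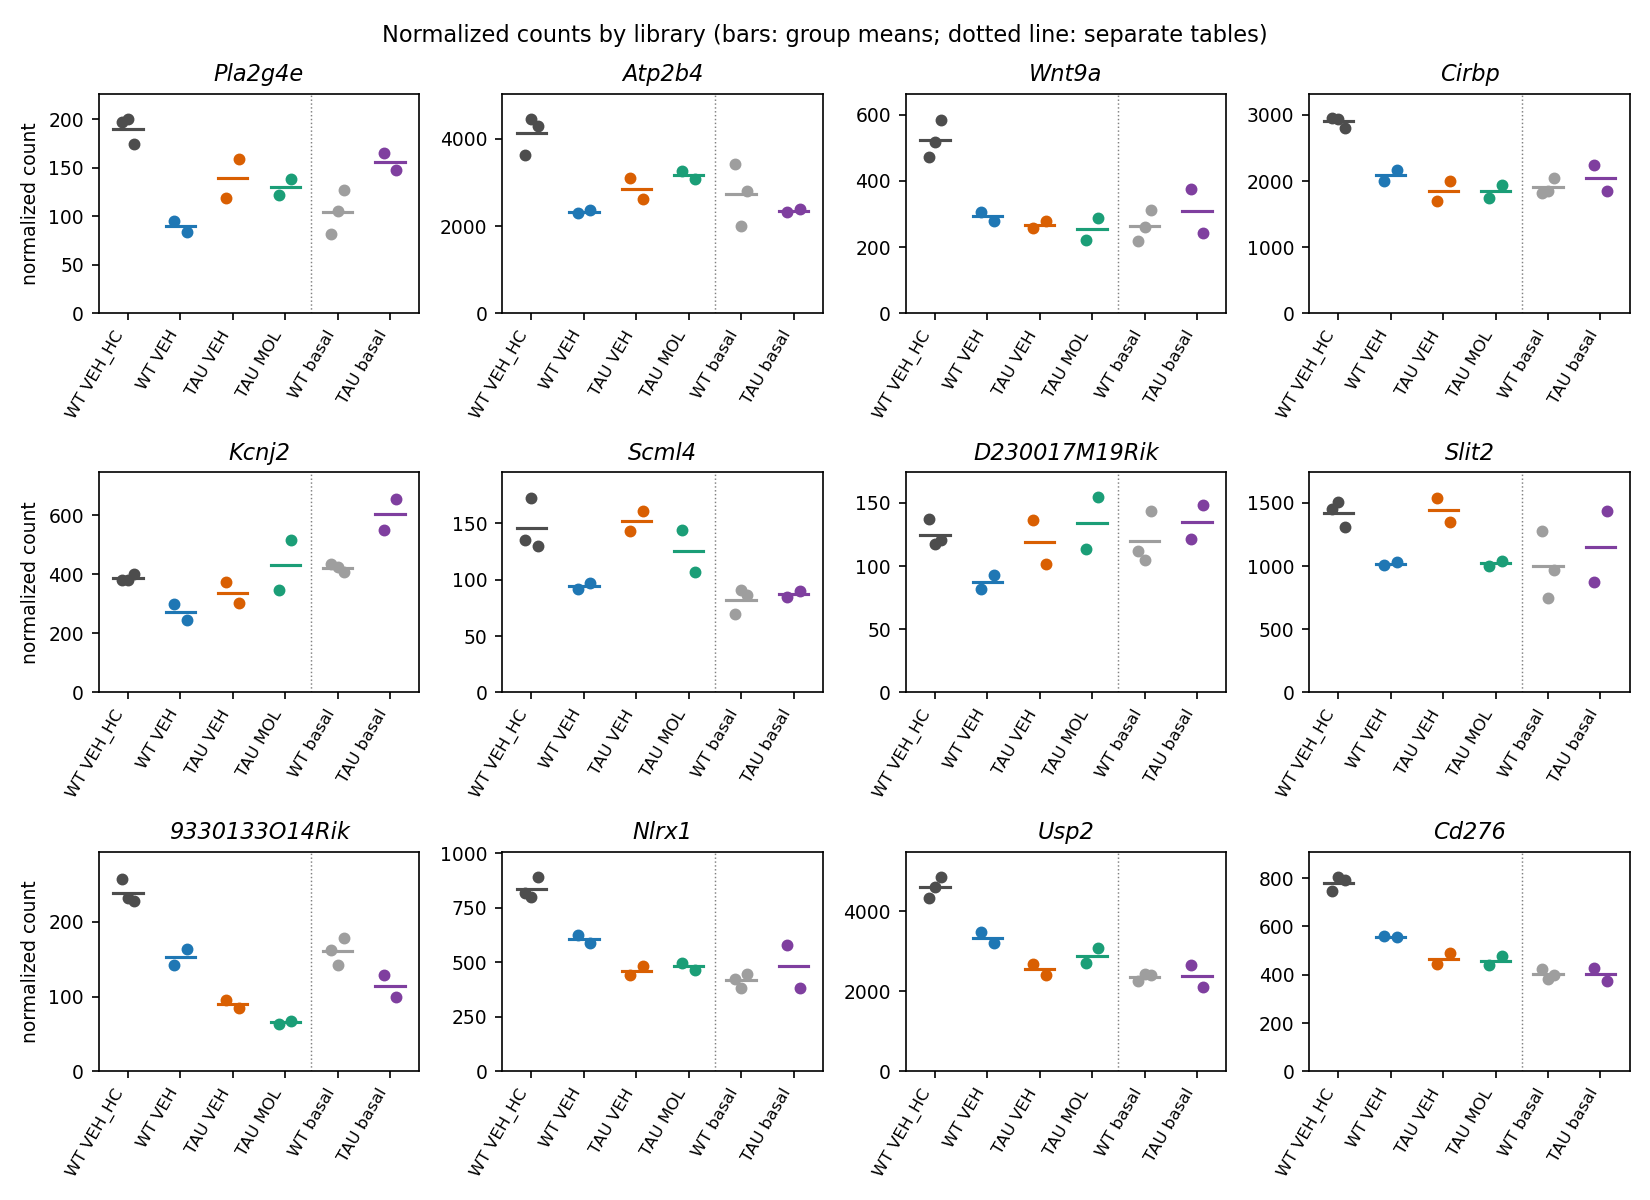
Normalized counts (y axis, from 0) of 12 members in every library, with points for libraries and bars for group means. The basal groups right of the dotted line come from a separately normalized table, and levels are not compared across it. Kcnj2, Scml4 and D230017M19Rik reach the home cage range in THY-Tau22 libraries, while 9330133O14Rik, Nlrx1, Usp2 and Cd276 lie below both WT VEH libraries.

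The highest ranked genes after Fabp4 covered several roles. Pla2g4e (chr2:119992148-120071071 on mm9), a phospholipase of the cytosolic A2 family that makes N-acylated phosphatidylethanolamine, read 197, 200 and 174 in WT VEH_HC, 95.6 and 84.1 in WT VEH, 119 and 159 in TAU VEH, then 122 and 138 in TAU MOL. All 4 THY-Tau22 libraries fell between the WT groups, without overlap. Atp2b4, the plasma membrane calcium pump PMCA4, read 3620, 4455 and 4300 in WT VEH_HC, 2298 and 2361 in WT VEH, 3089 and 2627 in TAU VEH, then 3272 and 3080 in TAU MOL, again between the WT groups in every library. Zdhhc22, of the palmitoyltransferase family, read 191, 213 and 221, then 123 and 124, then 127 and 162, then 166 and 152 in the same order of groups. The WT groups of such highly ranked genes were chosen as extremes, which favours values between them in any other group.

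Wnt9a (chr11:59120430-59147054 on mm9), a secreted Wnt ligand, behaved otherwise. It read 471, 518 and 585 in WT VEH_HC, 308 and 280 in WT VEH, 256 and 278 in TAU VEH, then 221 and 287 in TAU MOL, so that its THY-Tau22 libraries overlapped or lay below those of trained WT mice. Otof, the calcium sensor otoferlin of vesicle fusion, was low in all 6 trained libraries, with 252, 222 and 201 in WT VEH_HC, 91.7 and 133 in WT VEH, 106 and 99.0 in TAU VEH, then 85.9 and 93.2 in TAU MOL. Krt2, a keratin, read 290, 485 and 411 in WT VEH_HC, 175 and 191 in WT VEH, 238 and 240 in TAU VEH, then 188 and 187 in TAU MOL. The 3 remaining genes, 2810029C07Rik, Vwa3b and 1110002E22Rik, ranged from 179 to 200, from 163 to 221 and from 118 to 143 over the THY-Tau22 libraries.

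By role, the members were grouped after they were known, and the groups are small. Calls against WT VEH_HC, libraries that the rule took for high values, were favoured to be lower, and over all genes 18.2% were called lower in TAU VEH and 14.9% in TAU MOL. The median position ran from -0.13 for 6 genes of glycosylation and transport to 0.38 for 11 genes of channels, receptors and calcium handling, while the range within each group was wider than that. In vesicle release and neuronal trafficking (7 genes, positions from -0.22 to 0.38) 7 were called lower than in WT VEH_HC in TAU VEH and 4 in TAU MOL. In RNA binding and splicing (7 genes, from -0.37 to 0.60) it was 7 and 6. Of 17 transcription factors and chromatin genes, 11 were called lower in TAU VEH and 10 in TAU MOL, with a median position of 0.30. In glycosylation and transport 4 of 6 were called lower in TAU VEH and 5 in TAU MOL. Without TAU VEH replicate 2, where 12.2% of all genes were called lower, the TAU VEH counts were 3 for vesicle release, 5 for RNA binding, 7 for transcription factors and chromatin, and 3 for glycosylation and transport.

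Ion channels and receptors set the excitability of hippocampal neurons, and those described next were chosen after their values were seen. Ryr2, the ryanodine receptor that releases calcium from internal stores, read 14947, 16121 and 13681 in WT VEH_HC, 10887 and 10627 in WT VEH, 14407 and 13011 in TAU VEH, then 12310 and 13285 in TAU MOL. Both TAU MOL libraries lay between the WT groups, and TAU VEH overlapped the home cage range. Cacna1c, the pore of the L-type calcium channel Cav1.2, read 3918, 4546 and 4019 in WT VEH_HC, 2955 and 3069 in WT VEH, 3692 and 3294 in TAU VEH, then 3011 and 3089 in TAU MOL. Its TAU VEH libraries lay between the WT groups, and its TAU MOL libraries overlapped WT VEH.

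Grik3, a kainate receptor subunit, read 2695, 3108 and 2839 in WT VEH_HC, 2027 and 1663 in WT VEH, 2303 and 1815 in TAU VEH, then 2282 and 2323 in TAU MOL, where TAU VEH overlapped WT VEH. Kcnd3, the A-type potassium channel Kv4.3, read 3567, 4205 and 3448 in WT VEH_HC, 2593 and 2747 in WT VEH, 3585 and 3552 in TAU VEH, then 3072 and 3207 in TAU MOL. Its TAU VEH libraries lay within the home cage range and its TAU MOL libraries between the WT groups.

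The other genes of the group included 4 that lay nearer trained WT values in THY-Tau22 mice. Cckbr, the receptor for cholecystokinin in the brain, read 548, 543 and 517 in WT VEH_HC, 364 and 360 in WT VEH, 308 and 269 in TAU VEH, then 385 and 314 in TAU MOL. Pde1b, a phosphodiesterase activated by calcium and calmodulin, had a position of 0.10, Ntrk3, the neurotrophin receptor TrkC, of 0.15, and Gsg1l, an auxiliary subunit of AMPA receptors, of 0.19. Within this role group positions thus differed widely, from -0.32 for Cckbr to 0.98 for Kcnj2.

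The contrast of TAU MOL with TAU VEH sets no WT library of the ranking against another group, although all 9 libraries share the estimate of the spread, and it asks whether CSP-TTK21 moved these genes in trained THY-Tau22 mice. By edgeR, 0 of 98 members and 0% of all 16820 genes tested were called. At an unadjusted p under 0.05 there were 15 members (15.3%) and 1064 genes (6.33%). The median log2 fold change was -0.001 for the members and 0.01 for all genes, with quartiles of -0.13 and 0.14 for the members, and 48 of the 98 members were positive and 50 negative. The median standard error of a member was 0.13, so that with 2 mice per group a change of the size of that error could not be seen. A gene that was not called is not shown to be unchanged. The plot of these fold changes shows members on both sides of 0.

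Slit2, a secreted cue that guides axons through Robo receptors, had the smallest p of the members. It and the other genes named for this comparison were chosen after their values were seen, since none was called. It read 1542 and 1351 normalized counts in TAU VEH against 1004 and 1038 in TAU MOL, beside 1450, 1508 and 1309 in WT VEH_HC and 1010 and 1029 in WT VEH. The treated libraries were below both vehicle libraries and close to those of trained WT mice. The log2 fold change of TAU MOL against TAU VEH was -0.51 ± 0.09 (SE), with an edgeR adjusted p of 0.21. DESeq2 called it (adjusted p 0.0034), as did edgeR without a filter on low counts (7.1e-05) and edgeR with only the 2 groups in the fit (0.035), while over all alternatives the adjusted p ran from 7.1e-05 to 0.9999. Without TAU VEH replicate 2 its log2 fold change was -0.59, with an edgeR adjusted p of 0.75.

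Next by p came Slco2a1, a prostaglandin transporter, and Galnt14, an enzyme that starts O-linked glycosylation. Slco2a1 read 390 and 337 in TAU VEH against 237 and 236 in TAU MOL, at a log2 fold change of -0.63 ± 0.16 (SE), and its edgeR adjusted p was 0.35. Galnt14 read 774 and 820 in TAU VEH against 606 and 604 in TAU MOL, at -0.39 ± 0.11 (SE), with an adjusted p of 0.46. Neither pair of groups overlapped. Rnf39, a RING finger protein chosen after its values were seen, was higher in both treated libraries, with 144 and 130 in TAU VEH against 172 and 194 in TAU MOL (log2 fold change 0.41 ± 0.15 SE, edgeR adjusted p 0.66).

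Over all 99 members, both TAU MOL libraries were below both TAU VEH libraries for 23 (18.6% of genes) and above them for 18 (22.2%). The shares of the members were thus near those of all genes, in both directions. With only these 2 groups in the fit, 60 genes and 1 member were called, and DESeq2 called 54 genes and 1 member, Slit2 in both. Without a filter on low counts 233 genes and 4 members were called, the members being Fabp4, Slco2a1, Pisd-ps1 and Slit2. Fabp4 was at 936 in TAU VEH replicate 2 and at 0 in replicate 1, and without replicate 1 it was the single member called.

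The basal experiment came from other mice and asks whether the genotype alone moved these genes without training. By edgeR, 0 of 98 members were called between THY-Tau22 and WT, against 0.0245% of 16324 genes tested (4 genes), and DESeq2 called 0 members. At an unadjusted p under 0.05 there were 10 members (10.2%) and 803 genes (4.92%). The median log2 fold change of the members was 0.10 (quartiles -0.02 and 0.23), and that of all genes -0.01. Of the members 63 were positive and 35 negative (64.3% positive), against 48.4% positive of all genes. The libraries differed in this: in TAU basal replicate 1 the members stood at a median log2 ratio of 0.15 to the WT mean, with 74 of 92 higher, and in replicate 2 at 0.01, with 49 of 92 higher. Fitted against the WT libraries without replicate 2, 79 of 98 members were positive, against 47.1% of all genes. Without replicate 1 it was 54, against 50.4%.

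**Figure D5:**
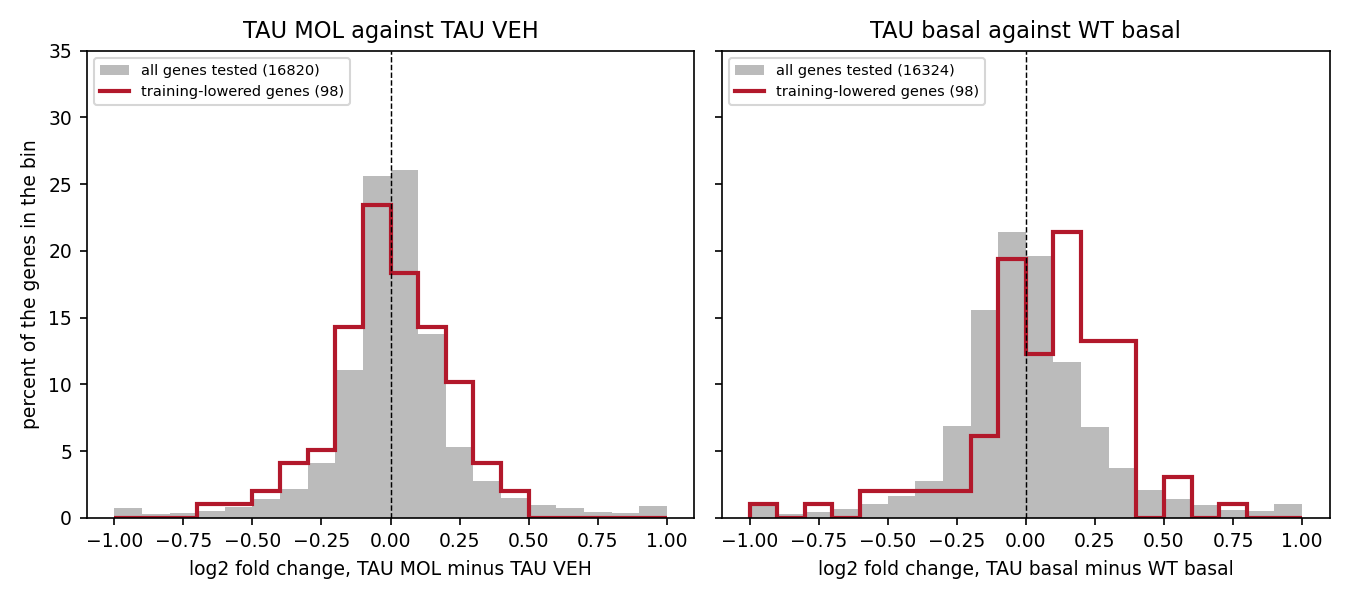
Share of genes (y axis, percent) in bins of 0.1 of log2 fold change (x axis), for all genes tested (grey) and 98 members (red line), in TAU MOL against TAU VEH (left) and TAU basal against WT basal (right). Values beyond -1 and 1 are counted in the end bins. The members centre on 0 at the left (median -0.001) and on 0.10 at the right.

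Of the members, 92 had a mean of at least 100 in the basal experiment. Both THY-Tau22 libraries were above all 3 WT libraries for 17 of them (7.64% of genes) and below all 3 for 5 (9.71%). The genes named here were chosen after their values were seen. Kcnj2 had the smallest p, with 433, 423 and 406 normalized counts in WT and 549 and 656 in THY-Tau22, and a log2 fold change of 0.52 ± 0.13 (SE, edgeR adjusted p 0.66). Gm3764, a long noncoding RNA whose promoter holds the full cAMP response element printed above, read 79.2, 63.5 and 104 in WT and 128 and 152 in THY-Tau22. Pla2g4e read 82.1, 106 and 127 in WT and 165 and 147 in THY-Tau22, and 2810029C07Rik read 195, 192 and 278 against 310 and 318. For these 4 genes the genotypes did not overlap, and none of the differences passed the adjusted threshold.

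The 5 genes below in basal THY-Tau22 mice were Cckbr, 9330133O14Rik, Atf7, Gpc3 and 1810010H24Rik. 9330133O14Rik, lowest of all members in trained THY-Tau22 mice, read 162, 142 and 178 in WT basal and 129 and 98.9 in THY-Tau22 basal mice, at a log2 fold change of -0.50 ± 0.21 (SE, edgeR adjusted p 0.90). Cckbr read 409, 370 and 441 against 329 and 296, at -0.38 ± 0.14 (SE). Both were thus also low in THY-Tau22 mice of the basal experiment, without passing the test. Nlrx1 read 423, 381 and 448 in WT and 580 and 383 in THY-Tau22, Usp2 2250, 2434 and 2415 against 2666 and 2112, and Cd276 423, 384 and 401 against 427 and 376. In these 3 genes, which lay below trained WT mice after training, the basal genotypes overlapped.

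Choroid plexus RNA also differed between the basal THY-Tau22 libraries, at 701 and 1987 CPM, against 594 to 712 in WT. Oligodendrocyte markers ran from 6705 to 7027 CPM in THY-Tau22 and from 7222 to 11940 in WT basal libraries. Astrocyte markers summed to 4131 and 5292 CPM in THY-Tau22 and 3678 to 3807 in WT, and microglia markers to 507 and 486 against 433 to 453. TAU basal replicate 1, in which 74 of 92 members were higher, also held the highest sums of meningeal fibroblast markers (96.2 CPM, against 31.4 in replicate 2 and 26.5 to 57.5 in WT) and of pericyte and smooth muscle markers (226, against 162 and 135 to 182). Thalamus markers summed to 132 and 188 CPM in THY-Tau22 and to 292, 140 and 362 in WT. No marker of these lists is among the members, and their part in the basal values was not tested.

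Of the pathway lists, Wnt signalling and the cold-inducible and heat shock genes held 1 member each. Wnt9a was the member among 28 Wnt signalling genes. In TAU VEH against WT VEH_HC, 3 of the 27 tested Wnt genes were called higher and 9 lower (median log2 fold change -0.26), against 16.2% and 18.2% of all genes. In TAU MOL 3 were called higher and 3 lower (median -0.21), against 14% and 14.9%. The lower calls include Wnt9a, which the rule chose for high WT VEH_HC libraries. Besides Wnt9a, Ctnnb1, the signal transducer beta-catenin, and Tcf7l1, a repressor at Wnt targets, had the smallest adjusted p in TAU VEH, with log2 fold changes of 0.28 ± 0.06 (SE) and -0.56 ± 0.13 (SE). Wnt9a itself stood at -0.99 ± 0.14 (SE) in TAU VEH and -1.06 ± 0.13 (SE) in TAU MOL. Between TAU MOL and TAU VEH and between the basal genotypes 0 of the 27 were called.

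Cirbp, the cold-inducible RNA-binding protein, was the 1 member among 12 cold-inducible and heat shock genes. It read 2959, 2943 and 2810 in WT VEH_HC, 2008 and 2163 in WT VEH, 1699 and 2004 in TAU VEH, then 1745 and 1942 in TAU MOL. In TAU VEH against WT VEH_HC 8 of the 12 genes were called higher and Cirbp alone lower, and in TAU MOL 6 were called higher and Cirbp alone lower. The shares of all genes are those given for the Wnt list, and the lower call of Cirbp was favoured by the rule, which did not choose the other genes. In WT VEH against WT VEH_HC 4 of the 12 were called higher (5.35% of all genes) and Cirbp alone lower (3.05%). Against WT VEH 1 was called higher in TAU VEH (3.61%) and 0 in TAU MOL (0.612%), and 0 were called lower in both (10.8% and 5.02%). Hsp90aa1 and Hsph1, chaperones of the heat shock response, stood at 0.59 ± 0.08 (SE) and 0.32 ± 0.06 (SE) in TAU VEH. In the basal experiment Cirbp read 1824, 1845 and 2054 in WT and 2249 and 1844 in THY-Tau22, which overlap.

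By symbol family, 5 of the members were zinc finger proteins (5.05% of members, 2.69% of genes reaching the mean) and 10 predicted genes or RIKEN clones (10.1% and 6.55%). 2 were potassium channels and 2 of the ephrin, semaphorin, plexin, netrin and slit group, and 0 were ribosomal proteins, immediate early genes, genes of the circadian clock list or cell type markers of the brain. Exons of 32 members (32.3%) overlap those of another gene, against 26.4% of genes. Among those named here are D230017M19Rik with Pecr, B3gntl1 with Tbcd, Cd276 with Gm10657 and Kcnd3 with 1700095B22Rik on opposite strands, and Pla2g4e with Gm13997 on the same strand. Baiap3, a protein of vesicle release chosen after its values were seen, showed how far 1 library can stand from its group, with 1060, 285 and 299 in WT VEH_HC and 189 to 301 over the THY-Tau22 libraries.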

How the data were processed

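RNA of the dorsal hippocampus of 14 mice was sequenced as polyadenylated, unstranded libraries, 9 in a learning and 5 in a basal experiment. The authors demultiplexed reads with CASAVA 1.8.2, aligned them to mm9 with TopHat2 2.0.10 and Bowtie2 2.1.0, and deposited a count per gene from HTSeq 0.5.4p3. The counting strand mode is not given in the sources used here. The deposited normalized signal is each count divided by 1 size factor per library, and levels are printed on that scale within each table. Lines without a gene or value (138, all in the learning table) were left out.

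Members were ranked on the normalized columns. Counts were tested with edgeR 4.0.16 (quasi-likelihood, TMM factors, filterByExpr, Benjamini-Hochberg over all genes tested) in R 4.3.3, with all 9 learning libraries in 1 fit and the 5 basal libraries in another. DESeq2 1.42.0, library size alone, DESeq2 size factors, no filter, a GC and length correction (loess, span 0.3), fits of the compared groups only, a replicate block, other forms of the rule and leaving out each library were alternatives. The scripts were tested on simulated data. The members, gene lists and tests were chosen with earlier results of these data known. Named genes were the 10 highest ranked members, members called between the treatments or the basal genotypes, the 5 nearest the WT VEH_HC mean and the 5 farthest below the WT VEH mean over 4 THY-Tau22 libraries, members of a pathway or marker list, and the genes at the limit of the rule. Others are marked as chosen after their values were seen. Groups came from the labels, and p-values measure the spread between mice of 1 group. The result for 1 further member is not reported here. Counts by role, and of libraries that do not overlap, without TAU VEH replicate 2 were added after seeing the data. So was the adipocyte list.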

Additional observations from a re-analysis of the deposited data

How the results depend on the processing

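Between TAU MOL and TAU VEH, where 0 members and 0 genes were called, DESeq2 called 1 and 54, edgeR without a filter on low counts 4 and 233, and edgeR with only the groups compared 1 and 60. Without 1 library at a time 0 to 1 members and 0 to 11 genes were called. Between the basal genotypes the 4 genes called became 41 with DESeq2, 11 with the GC and length correction and 125 without the filter, and 1 to 15 without 1 library at a time, while 0 members were called in each (0 to 0).

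Members lower in TAU VEH than in WT VEH_HC numbered 74, and 44 with the GC and length correction, and 51 to 69 without 1 library at a time. For TAU MOL the count of 73 ran from 38 to 75. Members higher in TAU VEH than in WT VEH numbered 11, against 5 with the GC and length correction, 22 with library size alone (608, 82 and 2578 of all genes in turn), 2 when ranked by the ratio of group means, and 1 to 3 without 1 library (Fabp4 alone without TAU VEH replicate 1). For TAU MOL the count of 2 (0.612% of all genes) became 6 with DESeq2 (0.995%) and 0 with the GC and length correction (0.0357%). It was 8 with library size alone (4.5%), 7 without the filter (1.34%) and 7 with only the groups compared (2.1%). Both TAU VEH libraries were below every WT VEH_HC library for 81 members (32.2% of genes), and TAU VEH replicate 1 alone for 85 (37.9%). Both TAU MOL libraries were below for 89 (30.3%). Members with both basal THY-Tau22 libraries below WT numbered 5 of 92 (9.71% of genes), and 1 with a mean of at least 200. Without 1 library such members numbered 7 to 30, 30 being without TAU basal replicate 1. For the higher mean and without 1 library the share of all genes was not computed. The counts of 1 and of 7 to 30 therefore cannot be read as a trait of the members. Fewer libraries make a gap easier to meet. Where counts moved otherwise, the cause was not tested.

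Replicate numbers did not pair the samples: deviations of libraries with the same number correlated at -0.04 to 0.24 in the learning and -0.16 to -0.06 in the basal table. With the replicate block 37 basal genes were called, and 4 members were higher in TAU MOL than in WT VEH (1.37% of all genes). Lower than in WT VEH_HC were 70 members in TAU VEH (18.7%) and 75 in TAU MOL (15.9%). In TAU VEH 10 were higher than in WT VEH (4.83%). Between the treatments 0 members and 0% of all genes were called, and between the basal genotypes 0 members.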

Other observations

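The members depend on how the training difference is ranked. With the minimum mean raised to 200, 72 of the 100 genes ranked first were among the members. Ranking by the ratio of the group means shared 42 of 99, and the rule on TMM-scaled CPM shared 95 of 99.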
